A study of Mus musculus with 4 samples.

Results

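Sprr1a, Sprr2a3 and Fgfbp1 were followed as 3 genes of 46078 in the count table, 12348 of which passed the filter on low values. They were picked by name with their levels in these libraries already known, so those levels are given as a description and no test of them was made. All 3 passed the filter of at least 1 CPM (read counts scaled to library size) in at least 1 library. Messenger RNA had been sequenced from MLE-12 cells, a mouse lung epithelial line derived from a tumour in which the SV40 large T antigen was driven by the surfactant protein C promoter. The 4 libraries were labelled Lingo1 KO 24 hours after a scratch, Lingo1 KO unscratched, WT 24 hours after a scratch and WT unscratched, with 1 library each. How the knockout was made, and whether the KO line is 1 clone, is not given in the sources used here. The column letter for unscratched cells was read by elimination, so all scratch comparisons depend on it.

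Small proline-rich (Sprr) proteins are precursors of the cornified envelope, the protein shell that transglutaminases cross-link beneath the membrane of squamous keratinocytes. Their genes lie side by side in the epidermal differentiation complex, and in simple epithelia they are known as genes of stress and injury. In mouse neurons Sprr1a is known as a gene switched on after axon injury, and Lingo1 is known from the Nogo receptor complex that restrains axon growth. Fgfbp1 encodes a secreted carrier that binds fibroblast growth factors (FGFs) held on heparan sulphate in the matrix and presents them to their receptors.

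The promoters are shown because the Sprr genes share a cluster and were read so unequally. Each sequence is the 250 bases before the RefSeq gene start (build GRCm38.p6, the assembly that mm10 is based on), written 5′ to 3′ on the strand of the gene. Capitals mark matches to the AP-1 motif TGANTCA and to the TATA motif TATAAA. The windows are chr3:92485882-92486131 on the minus strand for Sprr1a, chr3:92438780-92439029 on the minus strand for Sprr1b, the other type 1 gene, chr3:92285054-92285303 on the plus strand for Sprr2a3 and chr5:43981800-43982049 on the minus strand for Fgfbp1.
Sprr1a: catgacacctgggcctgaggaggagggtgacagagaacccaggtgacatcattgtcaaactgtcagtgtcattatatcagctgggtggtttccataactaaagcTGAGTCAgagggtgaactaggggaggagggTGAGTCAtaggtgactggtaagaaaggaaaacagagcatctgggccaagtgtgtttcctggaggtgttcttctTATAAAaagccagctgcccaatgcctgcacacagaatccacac
Sprr1b: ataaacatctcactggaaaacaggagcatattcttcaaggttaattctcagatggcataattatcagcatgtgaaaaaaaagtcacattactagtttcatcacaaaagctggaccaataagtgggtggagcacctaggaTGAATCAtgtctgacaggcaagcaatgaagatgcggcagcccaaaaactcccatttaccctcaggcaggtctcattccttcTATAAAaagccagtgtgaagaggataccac
Sprr2a3: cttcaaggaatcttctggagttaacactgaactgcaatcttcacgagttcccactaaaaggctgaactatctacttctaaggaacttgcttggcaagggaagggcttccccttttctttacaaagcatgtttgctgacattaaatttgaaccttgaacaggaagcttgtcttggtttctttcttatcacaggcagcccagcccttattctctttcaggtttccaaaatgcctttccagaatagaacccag
Fgfbp1: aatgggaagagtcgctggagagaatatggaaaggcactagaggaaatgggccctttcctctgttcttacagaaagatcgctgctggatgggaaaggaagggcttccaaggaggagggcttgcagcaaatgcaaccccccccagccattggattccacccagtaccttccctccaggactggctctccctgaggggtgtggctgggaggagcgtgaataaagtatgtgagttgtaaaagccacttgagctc

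Sprr1a held 2 AP-1 matches, TGAGTCA at -146 to -140 and again at -116 to -110, and a TATA match at -43 to -38. AP-1 is the Fos and Jun family dimer, known at promoters of Sprr genes. The motif reads the same on both strands, and 6.75% of 32851 promoters of the same length held it, and 0.338% of all these promoters held 2 or more matches. Sprr1b held 1 match, TGAATCA at -111 to -105. Sprr2k, like Sprr1a, held 2 matches, at -196 to -190 and at -182 to -176, and a TATA match. In the windows of Sprr2a3 and Fgfbp1 neither these AP-1 nor these TATA letters occurred. For Sprr2a3 the RefSeq start used here (92285304) lies 113 bases before the GENCODE gene start (92285417), and the bases between them were not searched. For Sprr1a and Fgfbp1 the 2 annotated starts lie 14 and 20 bases apart. TATAAA on either strand was found in 12.4% of all promoters.

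Other motifs were searched on both strands in the same windows. The C/EBP motif TTNNGNAA matched in all 3 windows, at -161 to -154 in Sprr1a, at 3 places in Sprr2a3, 2 of which overlap, and at -185 to -178 in Fgfbp1, but it also matched in 36.8% of all promoters. The octamer ATGCAAAT (1.60% of all promoters), the GC box GGGCGG (32.7%), the TEAD motif GGAATG (12.6%) and the cAMP response element TGACGTCA (1.55%) matched in none of the 3. Of the 14 Sprr promoters in the RefSeq table, 9 held the AP-1 motif, 10 the TATA motif and 7 the octamer. The Sprr genes without an AP-1 match in the window were Sprr2a1, Sprr2a2, Sprr2a3, Sprr3 and Sprr4. Of the 9 with a match, all but Sprr1a had 0 to 2 reads in a library, Sprr2k among them, while Sprr2a3 had 62 to 274. Whether any motif bears on the read numbers was not tested.

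**Figure D1:**
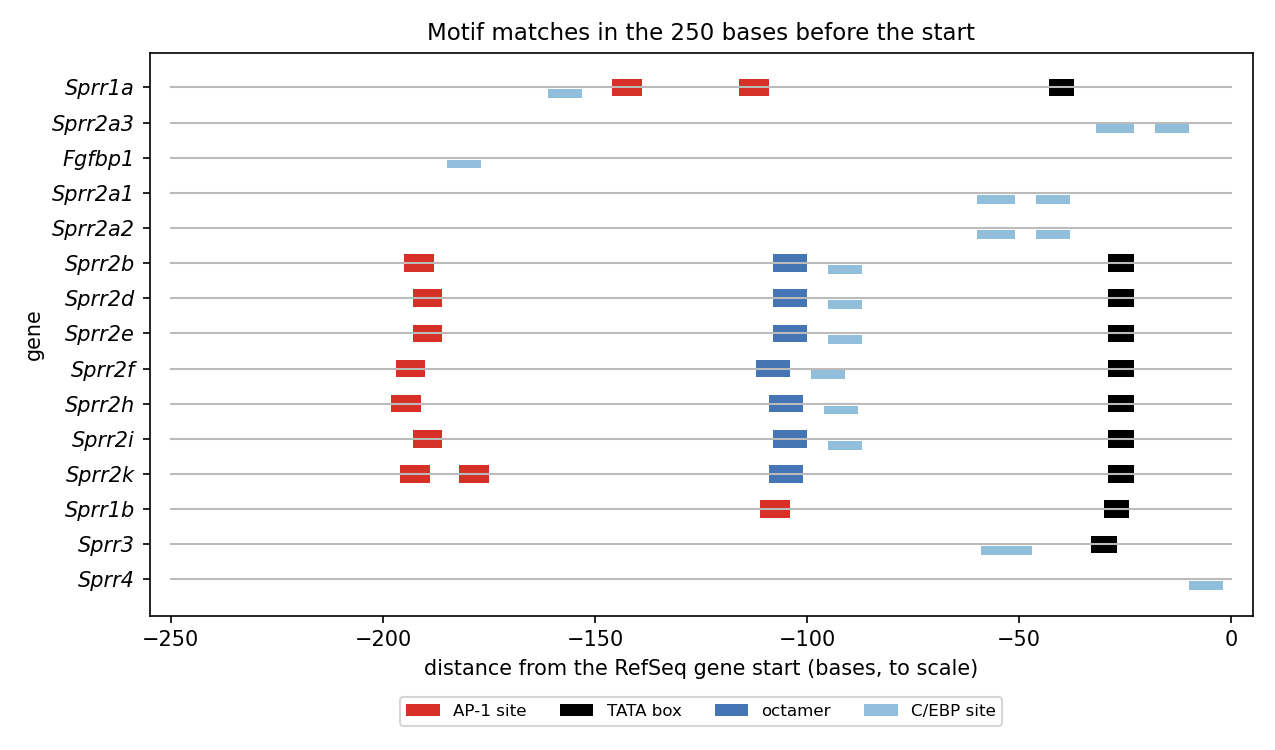
Map of motif matches in the 250 bases before the RefSeq start of the 14 Sprr genes and of Fgfbp1. The horizontal axis is the distance from the start in bases, 1 row per gene, and coloured blocks are matches. Sprr1a and Sprr2k have 2 AP-1 matches each, while Sprr2a3 and Fgfbp1 have C/EBP matches only.

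Sequencing depth was 48333801 counts in KO-labelled scratched, 29533746 in KO-labelled unscratched, 27907279 in WT scratched and 26903429 in WT unscratched cells. Lingo1 itself was counted at 41.4 and 41.2 CPM in the libraries labelled KO, scratched and unscratched, against 42.9 and 46.4 CPM in WT. Lingo1 was thus read in the libraries labelled KO, at 0.966 times WT after the scratch (0.899 to 1.04) and 0.889 times without it (0.821 to 0.963). Its level does not check the labels, and genotypes are given as labelled. Of 11 alveolar type 2 markers 7 passed the filter, with surfactant protein A1 and D genes (Sftpa1, Sftpd) at 0 in every library. The surfactant genes Sftpb and Sftpc were over 2-fold higher in the KO-labelled library at both states. The list did not move as a whole, with median log2 differences of 0.087 after the scratch and 0.077 without it. At each state the genotype interval lay above 1 for 4 of the 7 and below 1 for 1. Over all tested genes it lay above 1 for 24.0% after the scratch and 26.8% without it, and below 1 for 23.6% and 24.1%. The markers below 1 were Napsa after the scratch (ratio 0.615, 0.415 to 0.913) and Nkx2-1 without it (0.84, 0.805 to 0.877). Sftpb was at 93.5 and 106.6 CPM in KO-labelled scratched and unscratched cells, against 22.9 and 25.4 CPM in WT, and Sftpc at 19.8 and 20.6 CPM, against 6.42 and 5.68 CPM. Abca3, Lpcat1 and Nkx2-1 lay between 128.1 and 185.0 CPM. Of 6 epithelial markers 4 passed the filter. The epithelial cadherin gene Cdh1 lay between 712 and 859 CPM, Krt19 between 1135 and 1263, Krt8 between 247 and 331.2 and Epcam between 5.28 and 5.48 CPM. Krt18 had 4 to 10 reads in a library and did not pass. Whether the genotype differences of the alveolar type 2 markers bear on the Sprr values was not tested. Of 12 squamous keratinocyte markers 4 passed, Krt10 at 3.06 to 3.59 CPM among them, and Krt1, Krt5, Dsg3, Ivl and Flg were at 0 in every library. Of 6 fibroblast, 6 leukocyte and 6 endothelial markers, 1 of each list passed (Pdgfra, Cd68 and Tek). Their levels were unlike: the summed fibroblast and leukocyte markers lay between 1.795 and 3.278 CPM in each library. The summed endothelial markers, of which only Tek reached 1 CPM, were at 179.9 and 213.3 CPM in KO-labelled scratched and unscratched cells. In WT they were at 207.8 and 219.8 CPM. Ratios carry exact 95% Clopper-Pearson intervals for counting error alone. No spread between cultures can be seen with 1 library of each kind, and no difference here has a replicate check.

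Sprr1a was higher in both scratched libraries than in both unscratched ones. This gene (ENSMUSG00000050359, chromosome 3, 92483952 to 92485895, minus strand, mm10) had 1102 reads in KO-labelled scratched, 458 in KO-labelled unscratched, 746 in WT scratched and 386 in WT unscratched cells. Scaled, these were 23.0, 15.5, 26.7 and 14.2 CPM in the same order of libraries. Neither scratched level overlapped an unscratched one within counting error. In CPM the scratched library stood at 1.49 times the unscratched one in KO-labelled cells (95% interval 1.33 to 1.66) and at 1.88 times in WT cells (1.66 to 2.13). The KO-labelled to WT ratio was 0.860 after the scratch (0.783 to 0.945) and 1.09 without it (0.947 to 1.25). From high to low, the order was WT scratched, KO-labelled scratched, KO-labelled unscratched and WT unscratched, and only the last 2 neighbours had an interval that held 1. The ratio of the scratch response in KO-labelled cells to that in WT cells was 0.792 (0.672 to 0.933).

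Sprr2a3 was lowest in the WT unscratched library and higher in the other 3. Its locus (ENSMUSG00000074445, chromosome 3, 92285417 to 92291405, plus strand) was counted at 274 reads in KO-labelled scratched, 126 in KO-labelled unscratched, 127 in WT scratched and 62 in WT unscratched cells, or 5.72, 4.26, 4.55 and 2.29 CPM. After the scratch the CPM was 1.34 times the unscratched level in KO-labelled cells (1.08 to 1.67) and 1.99 times in WT cells (1.46 to 2.74). Unlike Sprr1a, it was also higher in the KO-labelled library at both states, 1.26-fold after the scratch (1.01 to 1.56) and 1.86-fold without it (1.36 to 2.57). WT scratched and KO-labelled unscratched cells were neighbours in level that did not differ beyond counting error (KO-labelled unscratched over WT scratched 0.935, 0.725 to 1.21). Both the unscratched genotype ratio and the WT scratch ratio contain the WT unscratched library with its 62 reads, so they are not separate observations of its level. The KO-labelled scratch response was 0.675 times the WT one (0.466 to 0.977).

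Fgfbp1 was higher in both scratched libraries, with no genotype difference beyond counting error. Reads at this gene (ENSMUSG00000048373, chromosome 5, 43978858 to 43981779, minus strand) numbered 745 in KO-labelled scratched, 290 in KO-labelled unscratched, 415 in WT scratched and 302 in WT unscratched cells, or 15.6, 9.80, 14.9 and 11.1 CPM. The 2 scratched levels lay close together and above the 2 unscratched levels. Scratched over unscratched, the ratio was 1.59 in KO-labelled cells (1.38 to 1.82) and 1.34 in WT cells (1.15 to 1.55). KO-labelled over WT, it was 1.05 after the scratch (0.926 to 1.18) and 0.880 without it (0.746 to 1.04), both with intervals that held 1. The scratch response of KO-labelled cells was 1.19 times that of WT cells (0.972 to 1.45), an interval that also held 1. In bulk RNA, a larger share of cells with the transcript and more transcript per cell cannot be told apart, here or for the Sprr genes.

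**Figure D2:**
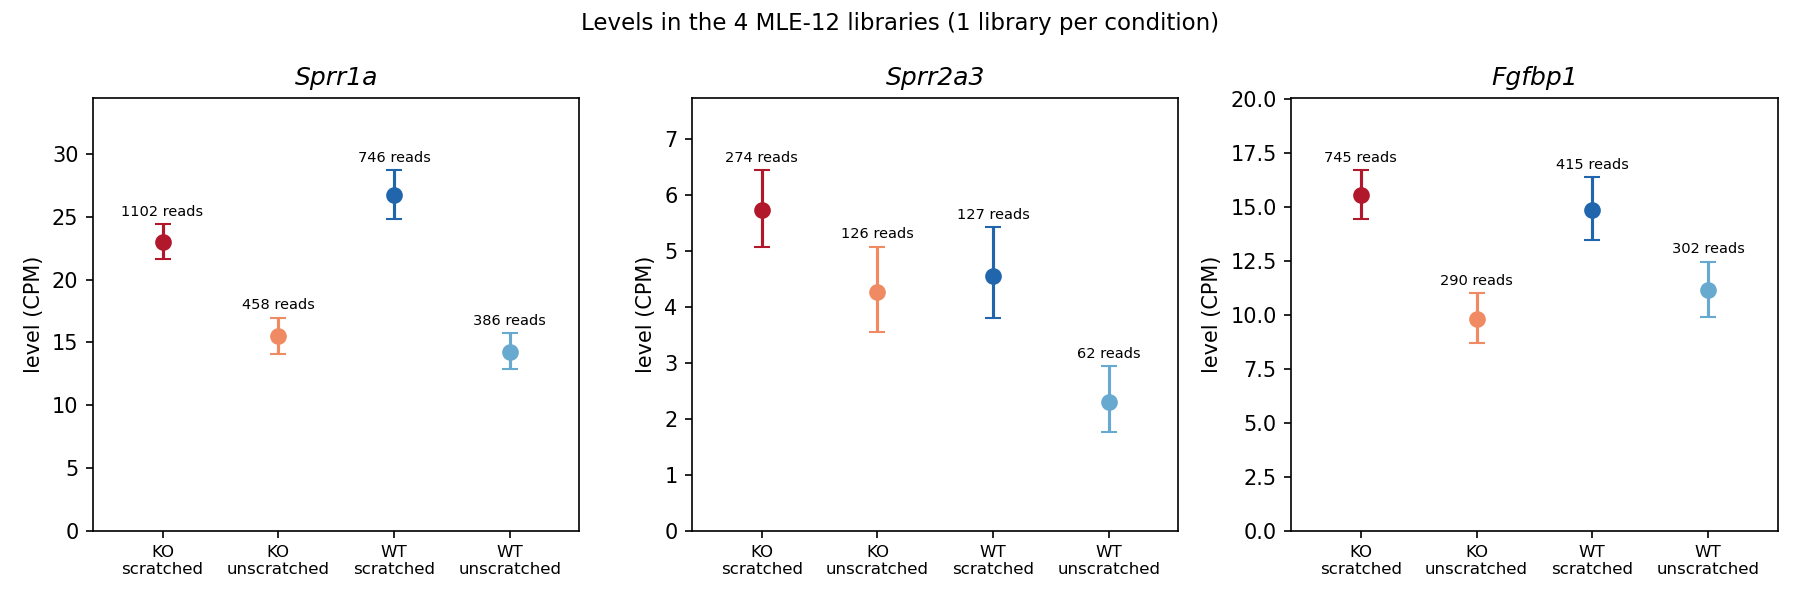
Level of Sprr1a, Sprr2a3 and Fgfbp1 in CPM (vertical axis, from 0) in each of the 4 libraries, with exact 95% Poisson counting intervals as bars and the read number above each point. Sprr1a and Fgfbp1 are higher in the 2 scratched libraries, while Sprr2a3 is lowest in WT unscratched at 2.29 CPM.

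The scratch differences of the 3 genes lay in the upper tail of all tested genes. A 2-fold rule was applied to all 12348 genes: a log2 difference in CPM of at least 1, with a prior count of 2 added, and an interval that excluded 1. None of the 3 genes met it in any comparison. It was met by 1.90% of genes for KO-labelled against WT after the scratch, 2.24% for KO-labelled against WT without it, 0.267% for scratched against unscratched KO-labelled cells and 0.858% for scratched against unscratched WT cells. By direction, higher and lower, the shares were 1.47% and 0.429%, 1.36% and 0.883%, 0.170% and 0.0972%, and 0.121% and 0.737% in the same order of comparisons. An interval that excluded 1, at any size of difference, was common: 47.6%, 51.0%, 32.0% and 37.2% of genes had one in these comparisons. By that measure Sprr1a differed in 3 of the 4 comparisons, Sprr2a3 in 4 and Fgfbp1 in 2. Sprr2a3 came nearest in WT cells, at a log2 difference of 0.97 for scratched minus unscratched. In that comparison 17 tested genes had a larger positive difference than Sprr2a3, 28 a larger one than Sprr1a and 247 a larger one than Fgfbp1. In KO-labelled cells the numbers were 184 for Sprr2a3, 95 for Sprr1a and 59 for Fgfbp1. For KO-labelled against WT without a scratch, 213 genes exceeded Sprr2a3, 3692 exceeded Sprr1a and 9851 exceeded Fgfbp1. These ranks describe genes chosen for their levels and support no claim about them.

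A lower limit, chosen after the values were seen, shows how often a gene was higher in both genotypes. A scratched to unscratched ratio of at least 1.3 with an interval above 1 was found for 1.09% of tested genes in KO-labelled cells, 135 in number, and for 1.47% in WT cells, 182 in number. The pairs of libraries behind the 2 ratios do not overlap, and 31 genes (0.251%) met the limit in both, Sprr1a, Sprr2a3 and Fgfbp1 among them by the way they were picked. Without a limit of size, an interval above 1 was found for 18.2% of genes in KO-labelled and 22.3% in WT cells, and one below 1 for 13.9% and 14.9%. For genotype, intervals above 1 were found for 24.0% of genes after the scratch and 26.8% without it, and intervals below 1 for 23.6% and 24.1%.

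**Figure D3:**
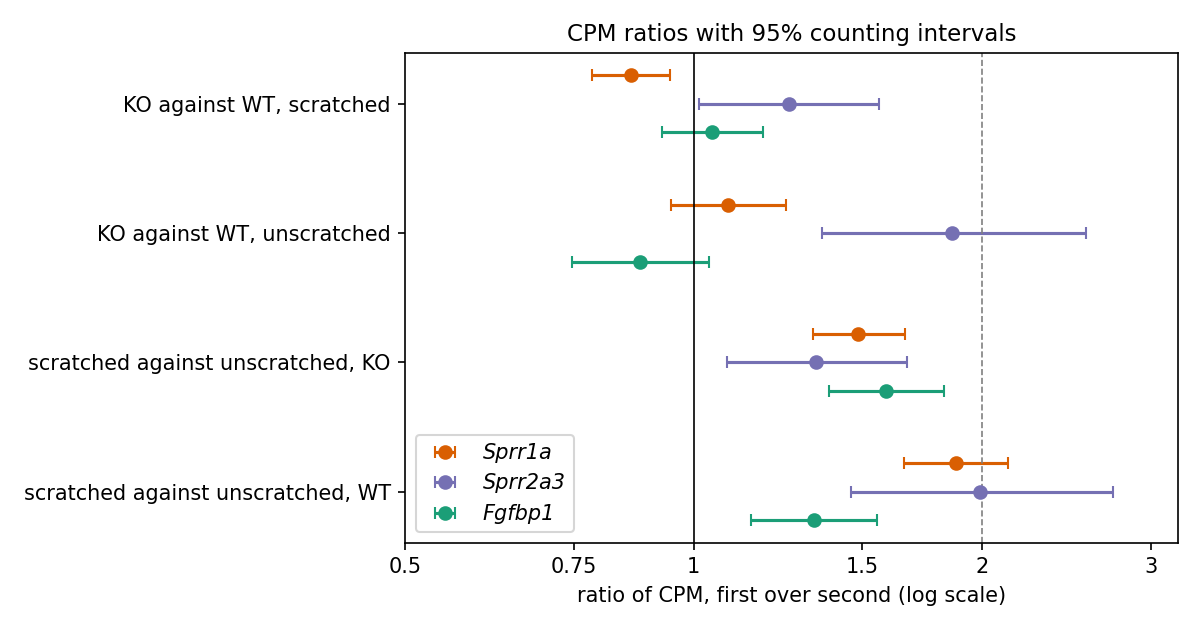
Ratio of CPM for 4 comparisons (horizontal axis, log scale, first-named group over second) for the 3 genes, with 95% counting intervals as bars, a solid line at 1 and a dashed line at 2. All 6 scratch ratios lie above 1 with their intervals, and 3 of the 6 genotype intervals hold 1.

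Sprr1a and Sprr2a3 supplied nearly all reads of the Sprr cluster. The cluster spans 285 kb of chromosome 3 (92215799 to 92500493) and holds 17 Sprr genes and pseudogenes of the count table. Of the other 15, 10 had 0 reads in every library, and the remaining 5 had 15 reads in all and at most 3 in a library. A floor of 3 counts corresponds to 0.0626 CPM in the deepest library and 0.111 CPM in the shallowest, and differences between levels under that floor were not read. Of all family reads, Sprr1a gave 79.5% in KO-labelled scratched, 78% in KO-labelled unscratched, 85.4% in WT scratched and 86.0% in WT unscratched cells. Sprr2a3 gave 19.8% and 21.5% in KO-labelled scratched and unscratched cells, against 14.5% and 13.8% in WT. Sprr1b, which encodes the other type 1 protein, had 0 reads in all 4 libraries and lies 45.2 kb from Sprr1a.

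**Figure D4:**
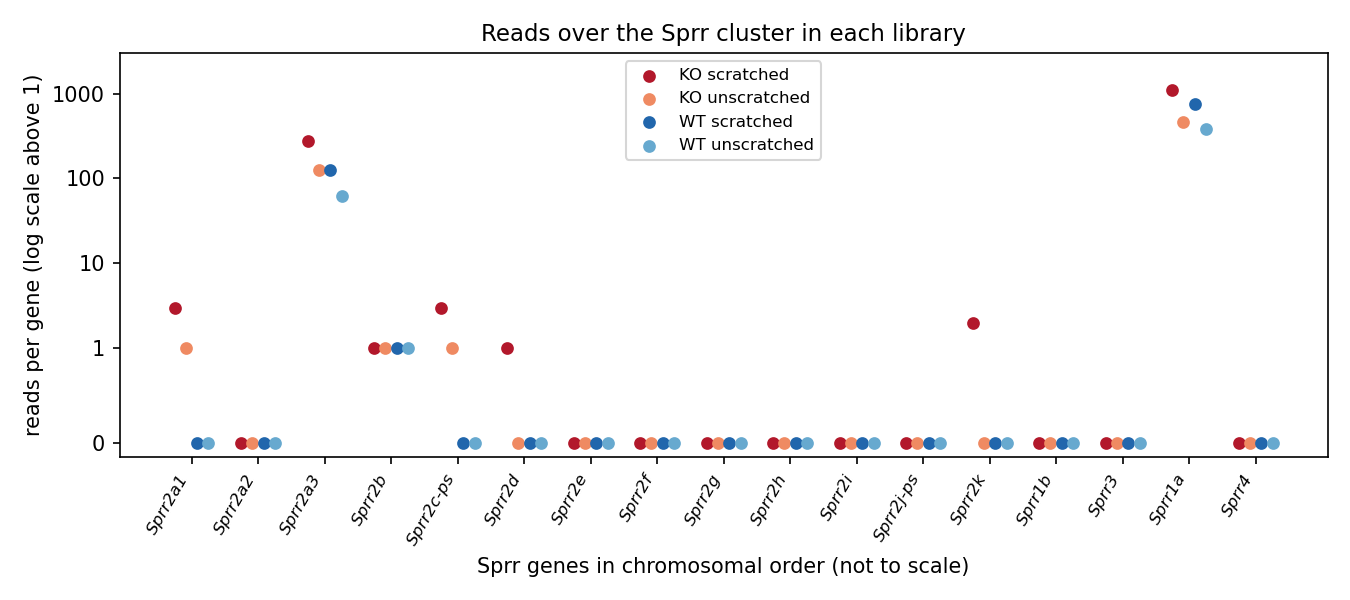
Reads per gene (vertical axis, log scale above 1) in each library for the 17 Sprr genes and pseudogenes, in chromosomal order along the horizontal axis. Sprr2a3 and Sprr1a stand at 62 to 1102 reads, and every other gene at 3 reads or fewer.

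Sequence overlap between the Sprr2a copies limits what the Sprr2a3 value means. Sprr2a1 had 4 reads in all and Sprr2a2 had 0, yet these genes cannot be called silent. Of all 100-base windows in their transcripts (GENCODE M21), 92.5% of Sprr2a1-201 and 92.8% of Sprr2a2-201 also occurred in another gene, Sprr2a3 among them. For the 682-base transcript of Sprr2a3 it was 16.6%, and for its 2880-base transcript 36.2%. With 50-base windows the shared parts of Sprr2a3 were 47.4% and 61.1%. The 250 bases before Sprr2a1 and Sprr2a2 were 100% identical. The window of Sprr2a3 was offset from theirs by 28 bases, and all 222 overlapping bases were identical. The treatment of reads that map to several places is not stated, and the Sprr2a3 count may hold reads of its copies or lack its own. Transcripts of Sprr1a, Sprr1b and Fgfbp1 shared no 50-base window with another gene, and no annotated gene overlapped any of the 3.

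Per length, Sprr1a was the most abundant of the 3 genes in every library. In the authors' RPKM values (reads per kilobase of transcript, scaled to library depth), Sprr1a stood at 28.4 and 19.2 in KO-labelled scratched and unscratched cells, against 33.2 and 17.8 in WT, above 70.4% to 83.9% of the genes in that table. Fgfbp1 stood at 7.07 and 4.48 RPKM in KO-labelled cells, against 6.78 and 5.11 RPKM in WT. Sprr2a3 stood at 1.98 and 1.48 RPKM in KO-labelled cells, against 1.58 and 0.798 RPKM in WT. The gene lengths implied by counts and RPKM together came out at 806 bases for Sprr1a, 2192 for Fgfbp1 and 2881 for Sprr2a3. If the reads came from the 682-base transcript, Sprr2a3 would be 4.22 times higher per length, and with the 1161-base transcript Fgfbp1 would be 1.89 times higher. On the shortest annotated transcripts the order of the 3 genes stayed the same in each library, with Sprr2a3 at 8.31 and 6.26 in KO-labelled scratched and unscratched cells, against 6.67 and 3.38 in WT.

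Most neighbouring genes had few or no reads. Around Sprr2a3, Sprr2a1, Sprr2a2, Sprr2b, Sprr2d and Sprr2e had 0 to 3 reads in a library, and Lelp1, 143 kb away, had 8 and 5 reads in KO-labelled scratched and unscratched cells, against 1 and 0 in WT. Beside Sprr1a, the 3 coding genes on each side (Sprr2k, Sprr1b and Sprr3, then Sprr4, 2310046K23Rik and the involucrin gene Ivl) had 0 to 2 reads in a library. Prom1, 11.8 kb from Fgfbp1, had 0 reads in every library, as did Cd38 and Ldb2, and Bst1 had 1 read in all. Tapt1, 193 kb away, had a scratched to unscratched ratio of 1.01 in KO-labelled (0.953 to 1.08) and 1.00 in WT cells (0.933 to 1.08). Gm7879, 64.9 kb away on the other side, had ratios of 1.27 (0.961 to 1.68) and 1.41 (1.03 to 1.93) from 71 to 160 reads.

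The other precursors of the cornified envelope were read little. Of 38 such genes outside the Sprr family (involucrin, loricrin, filaggrin, late envelope proteins and others), 27 had 0 reads in every library and 3 passed the filter. Those 3 were Tchh, the trichohyalin gene, the suprabasin gene Sbsn and Cdsn, which encodes the desmosomal adhesion protein corneodesmosin. Tchh was at 3.24 and 2.94 CPM in KO-labelled scratched and unscratched cells, against 3.48 and 3.47 CPM in WT. Sbsn was at 1.5 and 1.99 CPM in KO-labelled cells, against 1.47 and 2.18 CPM in WT. Cdsn was at 2.61 and 2.84 CPM in KO-labelled cells, against 0.538 and 0.849 CPM in WT, a ratio of 4.85 after the scratch (2.83 to 8.93) and 3.35 without it (2.09 to 5.56). Cdsn passed the filter through the KO-labelled libraries only. It met the 2-fold rule in both genotype comparisons and in neither scratch comparison. For the scratch all intervals of these 3 genes held 1. The list median of scratch log2 differences was -0.12 in KO-labelled and -0.55 in WT cells, against 0.01 and 0.02 over all tested genes. With 3 genes it is the value of 1 gene, Cdsn in KO-labelled and Sbsn in WT cells, and describes no shift of the list.

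The scaffold on which the envelope forms was abundant, with no large difference. Of 22 genes for plakins, desmosomal proteins, transglutaminases, annexins and other envelope components (S100 proteins, cystatins, serpins and sciellin), 14 passed the filter and 0 met the 2-fold rule in any comparison. Over all tested genes 0.267% to 2.24% met it in a comparison, so 0 of 14 is near that share. Periplakin (Ppl) was at 706 and 712 CPM in KO-labelled scratched and unscratched cells, against 757 and 754 CPM in WT. Plakoglobin (Jup) was at 661 and 625 CPM in KO-labelled cells, against 710 and 774 CPM in WT, and Anxa2, a membrane-binding annexin, at 700 and 683 CPM, against 685 and 593 CPM. The transglutaminase Tgm2 was counted at 127 and 123 CPM in KO-labelled cells, against 137 and 132 CPM in WT, while Tgm1, the keratinocyte enzyme that cross-links Sprr proteins, had 1 to 5 reads in a library. The list medians of log2 differences were 0.03 for the scratch in KO-labelled and 0.02 in WT cells, -0.07 for KO-labelled against WT after the scratch and 0.04 without it.

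Of 20 keratin genes of squamous and repairing epithelium 7 passed the filter, as did Sfn but not Lgals7, which complete the list of 22. Of the 8 that passed, 1 met the 2-fold rule: Krt13, at 3.47 CPM in KO-labelled against 1.47 CPM in WT scratched cells (2.36-fold, 1.67 to 3.41). Basal keratin Krt14 was at 77.0 and 68.7 CPM in KO-labelled scratched and unscratched cells, against 44.7 and 43.0 CPM in WT. Simple keratins Krt19 and Krt8 and the epithelial keratin Krt80 were the most abundant of the list, with Krt80 at a scratched to unscratched ratio of 1.17 in KO-labelled and 1.21 in WT cells. Summed over the 12 squamous markers, the level was 85.4 and 77.9 CPM in KO-labelled scratched and unscratched cells, against 52.2 and 50.5 CPM in WT, most of it Krt14. The sum thus followed 1 gene and does not describe the squamous list as a whole. Of the 4 markers that passed, 2 (Krt14 and Trp63) had genotype intervals above 1 at both states. Those of Krt10 and Sbsn held 1 in both genotype comparisons. Over all tested genes the genotype interval lay above 1 for 24.0% after the scratch and 26.8% without it. Whether any of these genes bears on the Sprr2a3 values was not tested.

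Of 35 genes for factors known at Sprr promoters 28 passed the filter. They held 8 of 9 AP-1 family genes, grouped after their values were seen. In WT cells the scratch interval of 6 of these 8 lay below 1 (14.9% of all tested genes), that of 1 above it (22.3%) and that of 1 held 1. In KO-labelled cells 5 lay above 1 (18.2%), 1 below it (13.9%) and 2 held 1. Atf3, a stress-induced factor also in the axon injury list, was higher after the scratch in both, at ratios of 1.17 in KO-labelled (1.03 to 1.33) and 1.23 in WT cells (1.05 to 1.43). Fosl2 had 1.08 in KO-labelled (1.04 to 1.13) and 0.956 in WT cells (0.915 to 0.999). In WT cells the scratched library was lower than the unscratched one for Fos (ratio 0.830, 0.788 to 0.874), Jun (0.783, 0.752 to 0.815), Junb (0.746, 0.714 to 0.778), Jund (0.677, 0.651 to 0.703) and Fosb (0.455, 0.385 to 0.536). Only Fosb met the 2-fold rule there. In KO-labelled cells the same ratios were 1.06 for Fos (1.01 to 1.12), 1.04 for Jun (0.995 to 1.08), 1.18 for Junb (1.14 to 1.23), 0.971 for Jund (0.936 to 1.01) and 0.706 for Fosb (0.601 to 0.831). Fosl1, the Fra-1 gene, was higher after the scratch in KO-labelled cells at 3.15 CPM, against 1.82 CPM unscratched (1.73-fold, 1.26 to 2.40), and in WT cells the ratio was 1.23 (0.785 to 1.95). Krüppel-like factor Klf4, Nfe2l2 (the NRF2 gene) and the YAP partner Tead1 were the most abundant of the list, at 292 to 802 CPM, with scratch ratios between 0.910 and 1.13. By genotype, Cebpa met the 2-fold rule in both comparisons (4.10-fold higher in KO-labelled cells after the scratch and 2.73-fold without it), and the squamous factor Trp63 met it without a scratch (2.90-fold, 1.91 to 4.53) at 3.21 CPM in KO-labelled against 1.11 CPM in WT cells. The list medians of scratch log2 differences were 0.003 in KO-labelled and -0.06 in WT cells.

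**Figure D5:**
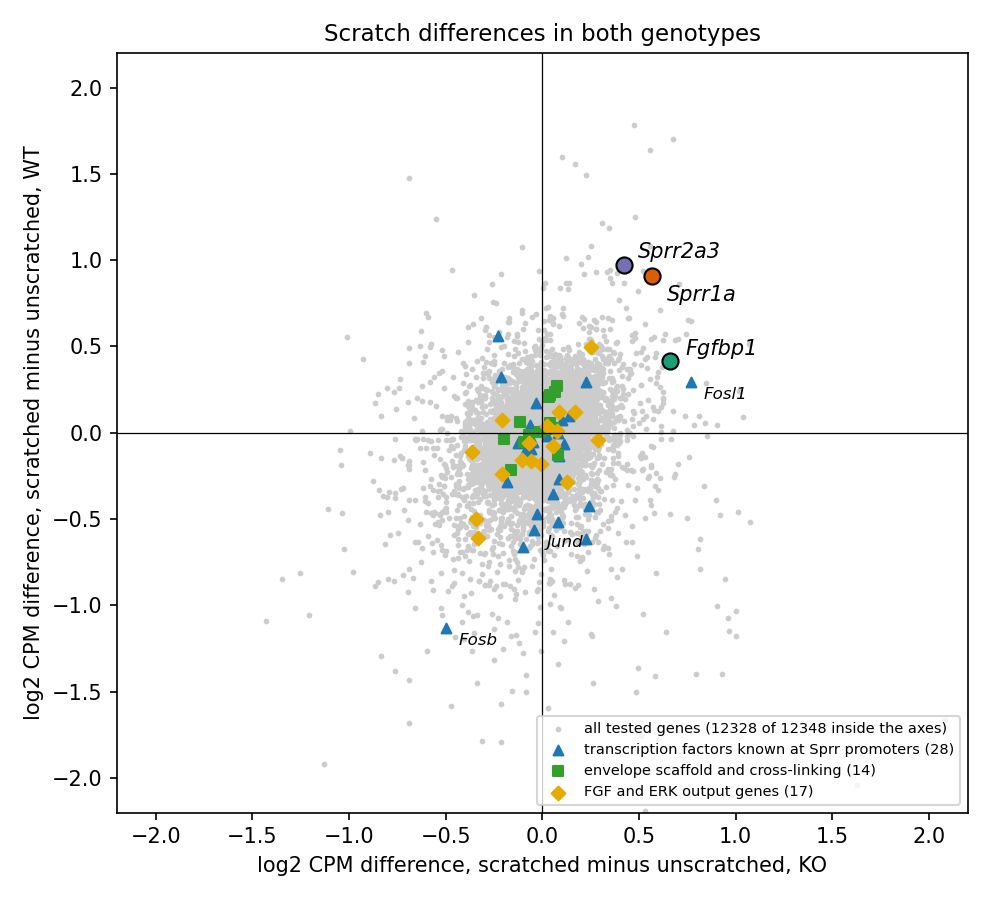
Log2 CPM difference, scratched minus unscratched, in KO-labelled cells (horizontal axis) and in WT cells (vertical axis) for tested genes, with the 3 genes and 3 gene lists marked. Sprr1a, Sprr2a3 and Fgfbp1 lie at the upper right, and Fosb and Jund lie below the WT zero line.

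FGF ligands that Fgfbp1 could carry were few in these cells. Of 20 ligand and binding protein genes 7 passed the filter. Fgf18 was the most abundant at 31.2 and 28.7 CPM in KO-labelled scratched and unscratched cells, against 37.0 and 32.8 CPM in WT. Fgf1 was at 6.03 and 5.78 CPM in KO-labelled cells, against 2.94 and 3.65 CPM in WT, and met the 2-fold rule after the scratch (2.05-fold, 1.60 to 2.66). Fgf16 was lower in the KO-labelled library at both states, with a ratio of 0.366 after the scratch (0.239 to 0.556) and 0.366 without it (0.223 to 0.586). Its levels were 0.814 and 0.879 CPM in KO-labelled against 2.22 and 2.40 CPM in WT cells, so it passed the filter through the WT libraries only. Fgf2 and Fgf7 lay between 0.553 and 1.25 CPM, and Fgf10 had 0 reads. The second carrier gene, Fgfbp3, was at 1.65 and 1.96 CPM in KO-labelled cells, against 1.65 and 1.88 CPM in WT. Its scratch ratios were 0.841 in KO-labelled (0.592 to 1.2) and 0.876 in WT cells (0.575 to 1.33), both with intervals that held 1. The list median of scratch log2 differences was 0.12 in KO-labelled and -0.11 in WT cells.

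Receptors and matrix partners of FGFs were led by heparan sulphate proteoglycans. Of 19 genes 12 passed the filter. Perlecan (Hspg2) was at 812 and 963 CPM in KO-labelled scratched and unscratched cells, against 718 and 921 CPM in WT, so its scratch ratios were 0.843 (0.830 to 0.856) and 0.780 (0.765 to 0.794). Flrt2 was at 505 and 493 CPM in KO-labelled cells, against 659 and 622 CPM in WT, and the syndecan Sdc4 at 276 and 286 CPM, against 294 and 307 CPM. Fgfr3 was the most abundant signalling receptor, at 96.8 and 88.9 CPM in KO-labelled cells, against 72.5 and 73.2 CPM in WT. Fgfr2 met the 2-fold rule in both genotype comparisons (2.12-fold higher in KO-labelled cells after the scratch, 1.58 to 2.87, and 2.51-fold without it, 1.76 to 3.65). No gene of the list met it for the scratch, where 0.267% and 0.858% of all tested genes met it in KO-labelled and WT cells. The scratch medians of log2 differences were -0.04 and -0.02 in KO-labelled and WT cells.

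Scratch intervals of FGF and ERK output genes lay on both sides of 1. Of 18 genes 17 passed the filter. In KO-labelled cells 5 of these had a scratch interval above 1 (18.2% of all tested genes) and 5 below it (13.9%). In WT cells the numbers were 2 (22.3%) and 6 (14.9%). The 2-fold rule was met by 0 for the scratch, near the shares of all tested genes (0.267% in KO-labelled and 0.858% in WT cells). Median log2 differences were -0.01 in KO-labelled and -0.08 in WT cells. Cyclin D1 (Ccnd1) was at 793 and 706 CPM in KO-labelled scratched and unscratched cells, against 666 and 612 CPM in WT. Myc had scratch ratios of 1.19 (1.12 to 1.27) and 1.41 (1.29 to 1.56) in KO-labelled and WT cells. Egr1 was at 252 and 230 CPM in KO-labelled cells, against 261 and 318 CPM in WT, and the inhibitor gene Spred1 at 141 and 142 CPM, against 151 and 171 CPM. By genotype the ERK phosphatase gene Dusp4 met the rule in both comparisons, 3.71-fold higher in KO-labelled cells after the scratch (3.03 to 4.58) and 3.80-fold without it (3.04 to 4.79).

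Cytokine, retinoid and axon injury genes that accompany Sprr1a elsewhere showed few large differences. Few genes of any kind met the 2-fold rule, 0.267% to 2.24% of all tested genes in a comparison. The cytokine family that signals through gp130 is known to raise Sprr1a in rodent heart cells, and 17 of 21 genes of that list passed the filter. Its receptor gene Il6st was at 225 and 238 CPM in KO-labelled scratched and unscratched cells, against 246 and 252 CPM in WT, Stat3 at 192 and 204 CPM, against 195 and 210 CPM, and Jak1 at 158 and 156 CPM, against 171 and 158 CPM. Only Lifr met the 2-fold rule, lower in KO-labelled scratched cells (ratio 0.488, 0.360 to 0.660). Of 22 retinoid genes 15 passed, led by Aldh1a1, Rxrb and Aldh1a2, and only the retinol dehydrogenase gene Rdh10 met the rule, lower in KO-labelled unscratched cells (0.443, 0.382 to 0.513). Of 25 genes known from injured neurons, Sprr1a not counted, 14 passed. Stat3, Klf6 and Jun were the most abundant, with Klf6 at 164 and 155 CPM in KO-labelled scratched and unscratched cells, against 175 and 175 CPM in WT. Tubb3, a neuronal tubulin gene, was at 21.3 and 13.1 CPM in KO-labelled scratched and unscratched cells, against 15.7 and 10.8 CPM in WT, with scratch ratios of 1.63 (1.45 to 1.84) and 1.46 (1.25 to 1.70). Only Stmn4 met the rule in this list, at 0.564 and 0.473 CPM in KO-labelled cells, against 1.26 and 0.406 CPM in WT. It was higher after the scratch in WT cells (3.09-fold, 1.53 to 6.75). After the scratch it was lower in KO-labelled than in WT cells (ratio 0.449, 0.262 to 0.764). Both ratios hold the WT scratched library with its 35 reads, the only library where Stmn4 reached 1 CPM, so they are not separate observations. The scratch medians of log2 differences in KO-labelled and WT cells were 0.01 and -0.04 for the gp130 list, 0.02 and -0.04 for the retinoid list and 0.09 and -0.001 for the injury list.

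The genes most like each of the 3 across the 4 libraries were found by the Euclidean distance between log2 CPM profiles, each centred on its own mean. Nearest to Sprr1a were Nrg1 (distance 0.185), Slc1a3 (0.191), Nog (0.201), Gapdh-ps16 (0.215) and Mrc1 (0.251), against a median distance of 0.773 over tested genes. Nrg1, which encodes the ErbB ligand neuregulin 1, had scratch ratios of 1.44 in KO-labelled (1.16 to 1.81) and 1.93 in WT cells (1.52 to 2.45). Nearest to Sprr2a3 were Cth (0.163), Slurp1 (0.185), Aldh1a7 (0.201), Filip1l (0.204) and Sap18b (0.218), against a median of 0.968. All 5 of these stayed under 3 CPM, as did Slc1a3, Gapdh-ps16 and Mrc1 beside Sprr1a, and counting error alone moves a profile at such levels. Nearest to Fgfbp1 were Mirt1 (0.0543), Psph (0.0584), Slc7a5 (0.0878), Gm4735 (0.105) and Golga7b (0.118), against a median of 0.582. The amino acid transporter gene Slc7a5 had scratch ratios of 1.51 in KO-labelled (1.45 to 1.57) and 1.38 in WT cells (1.32 to 1.44), and Psph, the last enzyme of serine synthesis, had 1.5 (1.38 to 1.63) and 1.36 (1.24 to 1.49). Sprr1a and Fgfbp1 lay 0.354 apart, Sprr1a and Sprr2a3 0.661, and Sprr2a3 and Fgfbp1 0.790, the smallest of the 3 distances being that of Sprr1a and Fgfbp1. With 4 libraries and 12348 genes such distances only describe these libraries.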

How the data were processed

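RNA of MLE-12 cells was sequenced after a strand-specific mRNA library preparation, per the labels' protocols. The authors deposited raw counts for 46078 Ensembl genes and RPKM values for 14844 of them, 161 without values. Per the submitters' processing notes, HTSeq 0.11.3, STAR 2.7.9a, edgeR 3.32.1 and Trimmomatic 0.39 were used with mm10, and no order of steps is recorded. Annotation release, strand setting and the handling of reads with several matches: not given in the sources used here.

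Counts were scaled with TMM factors (edgeR 4.0.16, R 4.3.3), and genes with at least 1 CPM in at least 1 library were kept. With 1 library per condition no p-value was computed. Ratios of CPM carry exact 95% Clopper-Pearson intervals, and the difference of scratch responses carries an interval from summed reciprocal counts. For the same reason the intervals cover counting error only. Reads have no molecular identifiers, so copies of 1 molecule cannot be told from separate molecules. The intervals may therefore be too narrow even for counting error. The fold rule was tested on simulated data. Names came from the authors' RPKM table, then from a reference list that matched 45143 identifiers, and positions from GENCODE M21. DESeq2 1.42.0 gave alternative size factors. Other values were computed with Python 3.11.15, numpy 2.4.6, pandas 2.3.3 and scipy 1.17.1, and figures with matplotlib 3.10.9.

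The genes and the lists were chosen with earlier results of these data known. Named from each list were the genes that met the 2-fold rule in the same direction in both genotype or both scratch comparisons and the 3 others with the highest mean CPM. Besides these, all Sprr genes, the 5 genes nearest in profile and the 3 coding neighbours on each side were named by rule. Other genes were named after their values were seen.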

Additional observations from a re-analysis of the deposited data

Results flagged for a closer look

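For 8 of the genes named above, the 2 arms of a contrast lay on opposite sides of 1, each beyond its counting interval. In a single arm 32.0% to 51.0% of all tested genes had an interval that excluded 1. How many of all tested genes lay on opposite sides was not counted, so the number 8 cannot be called unusual. The difference itself was not tested, since each arm is 1 pair of libraries. For the scratch, plakoglobin (Jup) had a scratched to unscratched ratio of 1.06 in KO-labelled and 0.917 in WT cells. Egr1 had 1.09 in KO-labelled and 0.821 in WT cells, Klf4 had 1.06 and 0.910, and Nfe2l2 had 0.980 and 1.13. Among AP-1 genes, Fos had 1.06 in KO-labelled and 0.830 in WT cells, Fosl2 had 1.08 and 0.956, and Junb had 1.18 and 0.746. For genotype, Aldh1a1 had a KO-labelled to WT ratio of 0.951 after the scratch and 1.11 without it, and Junb had 1.06 and 0.667. Sprr1a, Sprr2a3 and Fgfbp1 were not among them.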

How the results depend on the processing

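Under total counts, DESeq2 size factors, a prior count of 0.5 and the authors' RPKM values with a pseudocount of 0.1, the 60 alternative values of the 15 ratios and response differences of Sprr1a, Sprr2a3 and Fgfbp1 kept their sign and stayed inside the main counting intervals, with a largest shift of 0.07 on the log2 scale. The number of genes that met the 2-fold rule depended on the filter. For KO-labelled against WT after the scratch it was met by 234 genes, by 535 with no filter, by 62 at a mean of at least 5 CPM and by 155 in the RPKM values. For KO-labelled against WT without a scratch the numbers were 277, 611 with no filter, 61 at 5 CPM and 189 in RPKM. For scratched against unscratched KO-labelled cells they were 33, 226 with no filter, 5 at 5 CPM and 15 in RPKM. For WT cells they were 106, 263 with no filter, 16 at 5 CPM and 70 in RPKM. With no filter 22921 genes entered and at 5 CPM 10303. In RPKM no counting interval applied. No paired analysis was possible because each condition has 1 library, and for the same reason no library could be left out. Depth limits Sprr2a3 most, at 62 reads in WT unscratched cells.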

Other observations

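One FGF ligand was read only in the libraries labelled KO. Fgf4, an FGF known from early embryos, had 36 reads in KO-labelled scratched and 25 in KO-labelled unscratched cells, against 0 in both WT libraries. With a floor of 3 counts put in place of 0 in each WT library, the ratio was 6.99 after the scratch and 7.63 without it. These ratios leave out counting error and are not lower limits. The counting intervals of Fgf4, KO-labelled over WT, began at 5.4 after the scratch and at 5.76 without it. Its level stayed under 1 CPM (0.752 and 0.845 CPM in KO-labelled scratched and unscratched cells), so it did not pass the filter. Among the 284 listed genes it was the only one with at least 20 reads in both KO-labelled libraries and 0 in both WT libraries, a limit chosen after the values were seen. Krtdap, a keratinocyte differentiation gene, had 7 and 1 reads in KO-labelled scratched and unscratched cells, against 0 and 0 in WT. Both of its genotype intervals held 1, and the KO-labelled scratched library was the deepest. Serpinb2, a serpin of stressed keratinocytes, had 12 and 3, against 1 and 0, and its interval without a scratch held 1. The loricrin gene Lor, also below the filter, went the other way, with 16 and 11 reads in KO-labelled cells, against 20 and 24 in WT. Its KO-labelled to WT ratio was 0.466 after the scratch (0.226 to 0.946) and 0.42 without it (0.186 to 0.89).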
